A study of Glycine max with 4 samples.

Results

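Clusters of 3 or more close binding sites were examined in a ChIP-seq study of the soybean transcription factor GLYMA.13G153200, called ABI5 in the peak names of the deposited lists. A site was a place where the peak lists of both ChIP replicates overlapped, and neighbouring sites no more than 2000 bp apart were chained. Members were selected on these positions alone: 692 sites in 218 chains of 3 or more, out of 20217 shared sites on the 20 chromosomes, or 3.42% of them. They were set beside 3256 sites in 1628 chains of 2 and 16269 single sites. Because the peak calls that fixed the positions come from the same ChIP experiment as every strength, width and background value given here, all comparisons are descriptions without a test.

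In Arabidopsis, ABI5 is a basic leucine zipper factor of the abscisic acid pathway, the hormone route by which maturing seeds store reserves, acquire desiccation tolerance and hold back germination. Factors of its class bind as dimers to DNA elements with an ACGT core, known as abscisic acid response elements. Several such elements, or elements for partner factors, often lie close together beside seed genes. No genome of the files' build was at hand, so neither the DNA letters nor the genes at the sites are described here.

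The samples were whole embryos of the cultivar Williams 82 at early maturation, taken from seeds 6 to 7 mm in size. Chromatin was fixed with 1% formaldehyde for 10 min, sheared to 100 to 500 bp, and immunoprecipitated with 3 µg of an antibody against a peptide of GLYMA.13G153200. There were 2 biological replicates of the ChIP and 2 input samples without antibody; the inputs were not used here. The samples used here held no embryos lacking the factor, so the antibody's specificity could not be checked from the lists. Since whole embryos hold many kinds of cell, sites of 1 chain bound together in the same cells and sites bound in different cells cannot be told apart.

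The lists held 28524 peaks in ChIP replicate 1 and 28263 in replicate 2. The number of fragments at each summit was worked out from each peak's fold and p-value. Its median over the peaks was 37 (replicate 1) and 34 (replicate 2), and the smallest numbers were 18 and 17. Most sites therefore rest on few fragments, and the fold of a median site is far less precise than that of the strongest sites. The peaks covered 13.4 Mb in replicate 1 and 10.8 Mb in replicate 2.

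Most of the chains were short: 183 had 3 sites, 32 had 4 and 3 had 5. From first to last site the chains spanned a median of 2665.5 bp, with a range of 1420 to 5729 bp. The 474 gaps between neighbouring members had a median of 1233.75 bp, with the middle of the distribution between 943.875 and 1569 bp (quartiles). In chains of 2 the median gap was 1262 bp. The shortest gap between members was 447.5 bp, and 1 gap was under 500 bp. The gaps therefore left an empty stretch at the short end, while at the long end they ran up to the chaining limit itself at 1999.5 bp. Peaks of the lists were at least 266 bp wide in replicate 1 and 224 bp in replicate 2. Whether peak width sets the shortest gap was not tested.

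**Figure D1:**
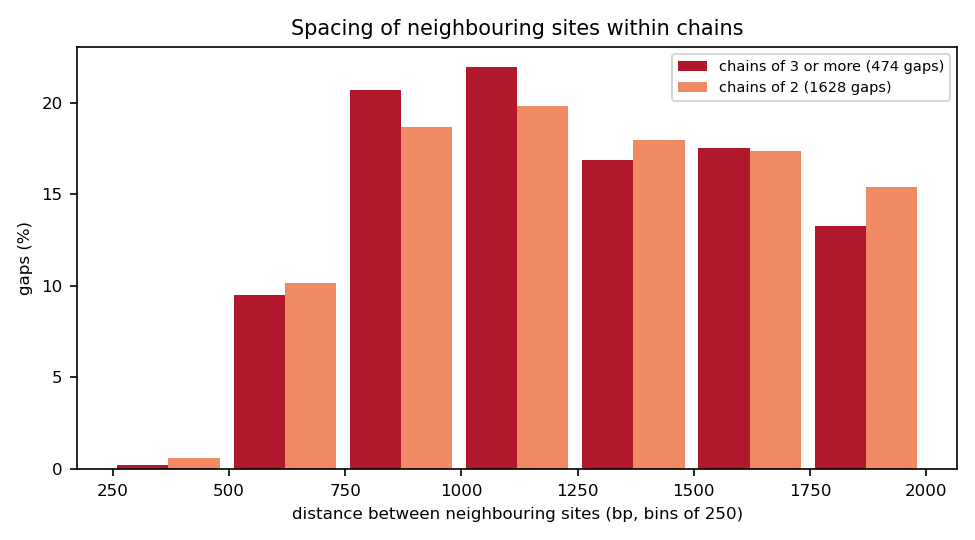
Share of neighbour gaps (y axis, %) by distance between neighbouring sites (x axis, bins of 250 bp) in chains of 3 or more and in chains of 2. The bin from 1000 to 1250 bp is the fullest in both, with 21.9% of the gaps in chains of 3 or more and 19.8% of those in chains of 2.

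Spacing had no single preferred value. The bin from 1000 to 1250 bp held 104 of the 474 gaps, and the bins from 750 to 1000 bp and from 1500 to 1750 bp held 98 and 83. The neighbouring peaks did not touch within a replicate. The stretch without a peak between them was at least 86 bp in replicate 1 and 97 bp in replicate 2, with medians of 671 and 796 bp. It was under 200 bp at 30 of the neighbour gaps in replicate 1 and at 10 in replicate 2. Peaks covered a median of 51.6% of a chain in replicate 1 and 43.4% in replicate 2. Some peaks left without a partner by the one-to-one pairing also lay between the first and last site of a chain. These peaks may still overlap a paired peak of the other replicate. They were 8 of the 8129 unpaired peaks of replicate 1 (0.098%) and 14 of the 7886 of replicate 2 (0.18%), in 21 chains, while the chains took up 0.063% of the chromosomes' extent.

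In the middle of the range, members and single sites had close folds. Fold is the authors' ratio of fragments at the summit to the local background. In replicate 1 the median fold was 5.00 for members, 5.12 for sites in chains of 2 and 5.06 for single sites. In replicate 2 it was 5.10, 5.33 and 5.39 for the same classes. The direction between members and single sites was not stable. Over sites with a local background of at most 20 fragments, the medians in replicate 1 were 5.13 for members and 5.09 for single sites, and in replicate 2 they were 5.24 and 5.39. At a single member the log2 ratio of the replicates' folds had an SD of 0.59. Peak widths were also close, with medians of 476.5, 464.5 and 454 bp in replicate 1 and 389.5, 392 and 383 bp in replicate 2, in the same order of classes.

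The classes parted more at the ends of the fold range than in its middle. At the high end, a mean fold of at least 20 was reached by 1.56% of all shared sites and by 19 of the 692 members, or 2.75% (exact 95% binomial interval 1.66% to 4.25%). The share was 2.06% in chains of 2 (1.60% to 2.61%) and 1.41% among single sites (1.23% to 1.60%). The order of the classes was the same in each replicate: a fold of at least 20 was seen at 3.18%, 2.79% and 2.11% of sites in replicate 1, and at 2.02%, 1.84% and 1.26% in replicate 2. The intervals cover counting error only and treat sites of 1 chain as separate, which they are not. The share depended on the choices made. At a chaining distance of 1000 bp it was 0 of 84 members, and none of the strongest 20 sites was a member. By an approximate bound, not the exact interval used above, 0 of 84 allows a share of up to 3.57%. In the list of 1 replicate alone, the limit applies to that replicate's own fold. The share was then 1.18% of 1774 members and 0.92% of single sites in replicate 2. In replicate 1 it was 2.40% of 1998 members and 1.41% of single sites. At a lower fold limit of 10 the classes lay closer and in another order, with 11.1% of members, 11.6% of sites in chains of 2 and 10.0% of single sites, against 10.3% of all shared sites.

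At a mean fold of at least 40 there were 7 members, 14 sites in chains of 2 and 31 single sites. They were 1.01%, 0.43% and 0.19% of each class, against 0.26% of all shared sites. When all shared sites were ordered by the mean −log10 q-value, 4 of the strongest 10 and 6 of the strongest 20 were members. The share then thinned out, to 10 of the strongest 100 and 41 of the strongest 1000 (4.1%), beside 3.42% of all shared sites. These counts at the very top rest on few sites. The strongest site of all is a member only through a gap of 1999.5 bp, and with positions taken from replicate 1 alone it dropped out, leaving 3 members among the top 10 and 5 among the top 20.

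**Figure D2:**
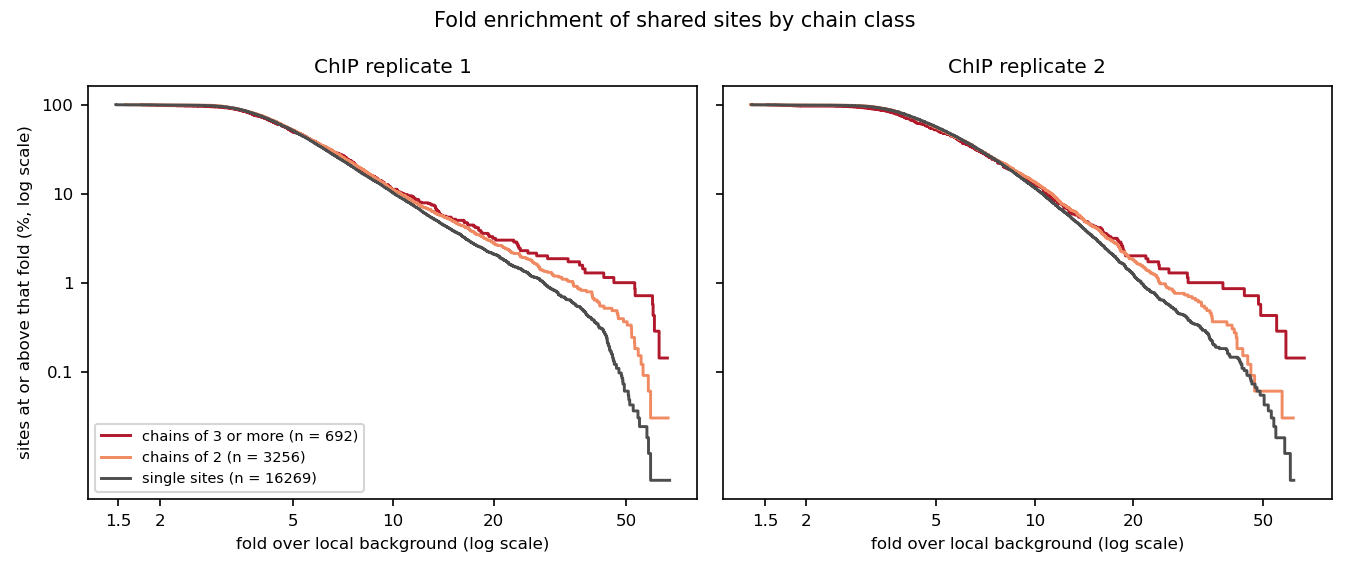
Percentage of sites (y axis, log scale) at or above each fold over local background (x axis, log scale) for members in chains of 3 or more, sites in chains of 2 and single sites, in each ChIP replicate. The curves run together around the median fold near 5 and part above a fold of 20, where the members' curve runs above the others over most of the range in both replicates.

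The strong members sat mostly beside weaker ones. The 19 members with a mean fold of at least 20 lay in 17 chains, and 1 chain held more than 1 of them. The other 36 sites of these chains had mean folds of 3.02 to 18.7, with a median of 6.23, beside 5.32 for all shared sites.

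The strongest site of the whole list lay at the end of a chain of 3 at chr18:57418616-57422642. Its fold was 62.7 in replicate 1 and 66.6 in replicate 2, from 524 and 434 fragments. The first site of the chain had folds of 9.71 and 6.47, and the middle one 18.4 and 11.9. Each step along this chain was upward in both replicates, and the strongest site stood clear of its neighbours by more than the replicates differed.

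A second chain of the same chromosome, chr18:48694560-48698103, had the same build. Its last site had folds of 59.9 and 54.9, against 8.00 and 8.81 at the first site and 8.22 and 4.28 at the second. On chromosome 14 the chain chr14:44867327-44870702 ended in a site of 53.0 and 58.6, after sites of 7.14 and 5.24 and of 7.75 and 5.24. In both chains the weaker sites could not be ranked against each other, since the replicates differed by as much as the sites did.

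The chain chr13:14062892-14065947 ran the other way along the coordinates. Its first site had folds of 66.4 and 43.7, the second 17.4 and 8.01, and the third 4.19 and 6.38. The chain chr19:7119435-7122975 held both a very strong and a very weak site: its last site had 60.2 and 49.0, its middle site 13.4 and 9.55, and its first site 2.73 and 3.31. Its mean fold at the last site was 18.1 times that at the first, the widest ratio among the 218 chains.

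A chain of 4 on chromosome 6, chr6:48741837-48746721, was unlike these in that every one of its sites was strong. In order along the chromosome, the folds were 20.3 and 17.1 at the first site, 29.0 and 24.0 at the second, 37.0 and 23.9 at the third, and 60.7 and 48.3 at the fourth (replicate 1 and replicate 2 at each). It was the only chain with more than 1 member above a mean fold of 20, and its weakest site, at 18.7, was the highest weakest site of any chain. The next site along, 3102 bp away, opened another chain of 3 at chr6:48748970-48753233. There the folds were 24.1 and 17.9, 14.1 and 10.6, and 16.3 and 15.4. These were the only 2 chains whose sites all had a mean fold of at least 10. Apart from chains described above or next, the highest weakest site was found at chr17:10221417-10224161, with mean folds of 10.5, 8.91 and 12.9 at its 3 sites. The replicates differed widely at its middle site, with folds of 4.49 and 13.3.

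The other chains among the 10 with the strongest single site again held 1 strong site. At chr3:40042240-40046704 the last of 3 sites had folds of 53.1 and 37.6, and the other sites had mean folds of 10.6 and 9.99. At chr3:43300947-43304861 the last site had 36.2 and 29.4, beside mean folds of 4.99 and 6.00. In the remaining chains the strong site differed widely between the replicates. The middle site of chr5:7035159-7038425 stood at 45.9 in replicate 1 against 18.3 in replicate 2, and the first of 4 sites at chr13:27935813-27941266 had 42.8 and 18.6. Each was still the strongest of its chain in both replicates.

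**Figure D3:**
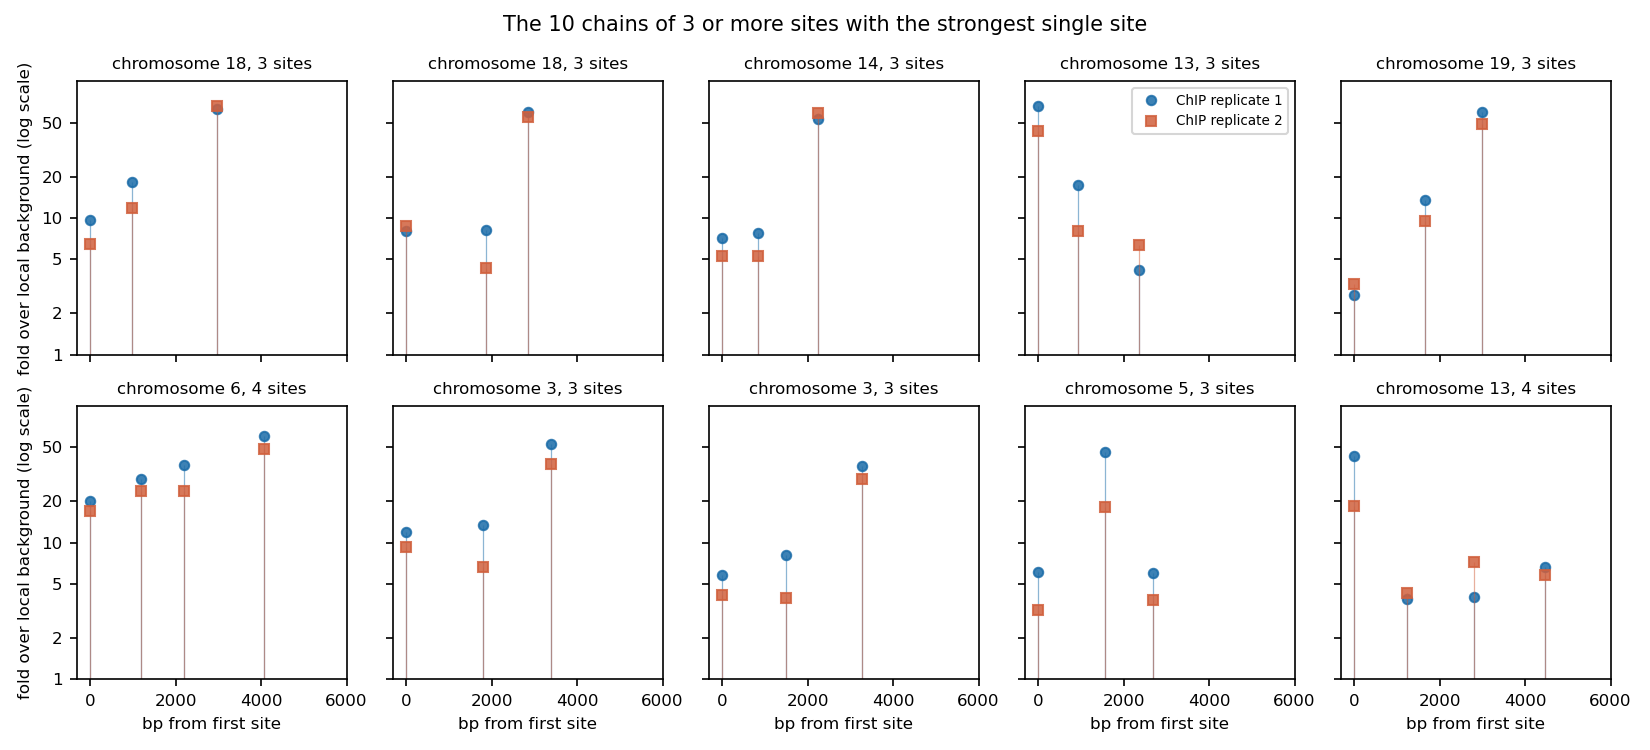
Fold over local background (y axis, log scale) of each site against its distance from the first site of its chain (x axis, bp), for the 10 chains with the strongest single site, ordered by that site's mean fold. Circles are ChIP replicate 1 and squares replicate 2. In 9 of the 10 chains 1 site stands well above the rest, while all 4 sites of the chromosome 6 chain lie at a fold above 17 in both replicates.

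The 3 longest chains did not resemble each other. The widest, chr17:15311605-15317925, spanned 5729 bp and opened with a site of 23.7 and 22.2 in replicates 1 and 2. Its other 4 sites had mean folds of 6.62 to 7.90. The chain chr5:40535107-40539772 had its highest mean fold, 11.3, at the second site, but the replicates put it at 6.36 and 16.2. In replicate 1 the fifth site was instead the highest, at 7.86 against 4.28 in replicate 2. All 5 sites at chr8:10176122-10181117 were weak and even, with folds of 3.69 to 4.63 in replicate 1 and 3.24 to 4.35 in replicate 2.

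Among the 32 chains of 4, 3 lay wholly on a high background and are described further on; the others had mean folds of at least 3.11 at every site. The chain chr15:6455472-6461513 was the widest of them, with 5461 bp and mean folds of 5.68 to 11.3. At chr20:37486961-37491029 the sites were evenly strong, at mean folds of 7.24 to 10.8. At chr9:1182102-1186609 they were evenly weak, at 3.28 to 4.99. The strongest site of a chain had a median mean fold of 9.10 in chains of 4 and 7.63 in chains of 3. The weakest site had medians of 3.77 and 3.99. The highest of 4 values tends to lie above the highest of 3, and the lowest below the lowest of 3. These medians therefore do not show that longer chains hold stronger sites. Those for chains of 4 include the 3 chains on a high background.

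Over all 218 chains the strongest site had a median of 1.88 times the mean fold of the weakest, with a range of 1.02 to 18.1. In 98 chains the ratio was at least 2. Counted anew over all 218 chains, the ratio was at least 2 in each replicate taken by itself in 68 chains. A ratio of at least 4 was found in 19 chains, of which 12 had it in each replicate. Because the strongest and weakest of a few noisy values always differ, ratios near the median do not show that the sites of a chain differed. Both replicates put the same site first in 136 of 218 chains (62.4%), and in 118 of the 183 chains of 3, where there are 3 sites to choose from. That was the case in 11 of the 54 chains with a ratio under 1.5, in 42 of 66 from 1.5 to 2, in 44 of 56 from 2 to 3, and in 39 of the 42 with a ratio of at least 3. The ratio uses the mean of both replicates and is therefore larger where they agree, so part of this increase is built into the grouping.

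The strongest site had no fixed place in a chain. In the 183 chains of 3 it was the first site along the chromosome in 57, the middle one in 57 and the last in 69. Taken over all gaps, neighbouring members differed in strength about as much as more distant sites. Neighbours within chains of 3 or more differed by a median of 0.50 in log2 mean fold, against 0.49 in chains of 2, 0.51 for neighbouring sites 2 to 5 kb apart and 0.51 for those 20 to 50 kb apart. The 144 member gaps of up to 1 kb had a median difference of 0.43. The 184 from 1 to 1.5 kb had one of 0.55, and those from 1.5 to 2 kb one of 0.52. In chains of 2 the difference was likewise smaller at close range, with 0.43 over 479 gaps of up to 1 kb and 0.56 over 534 gaps from 1.5 to 2 kb.

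Summit distance between replicates was similar in all classes, though the pairing by overlap admits only peaks that lie close. The summits lay a median of 38 bp apart for members, 40 bp for chains of 2 and 37 bp for single sites. Across sites, the log2 folds of the replicates had a Pearson correlation of 0.72 over the 692 members, 0.66 over chains of 2 and 0.63 over single sites. The points share 2 libraries and the members share chains, so this is a description. Without the sites on high background it was 0.68, 0.65 and 0.61.

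At the low end, the members included a group of sites on a very high local background. The background worked out from fold and p-value was above 20 fragments in at least 1 replicate at 1.14% of all shared sites, and at 24 of the 692 members, or 3.47% (exact interval 2.23% to 5.12%). It was so at 25 sites in chains of 2 (0.77%) and at 181 single sites (1.11%). The interval treats sites of 1 chain as separate, while the 24 members lay in only 8 chains. The gap to the other members was wide. At the 24 sites the background was 53.3 to 227 fragments in replicate 1 and 62.2 to 239 in replicate 2. At all other members it was at most 11.7 and 11.3.

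These 24 sites combined many fragments with little enrichment. They held 106 to 509 fragments in replicate 1 and 114 to 437 in replicate 2. Their folds were 1.76 to 2.57 in replicate 1 and 1.52 to 1.96 in replicate 2, while the other members had folds of at least 2.24 and 2.47. Every one of the 24 was thus below every other member in replicate 2, and 15 of them were so in replicate 1. A site on a low background needs a higher fold to pass the q-value limit. Part of this separation is therefore set by the peak calling. The source of the high background was not tested.

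**Figure D4:**
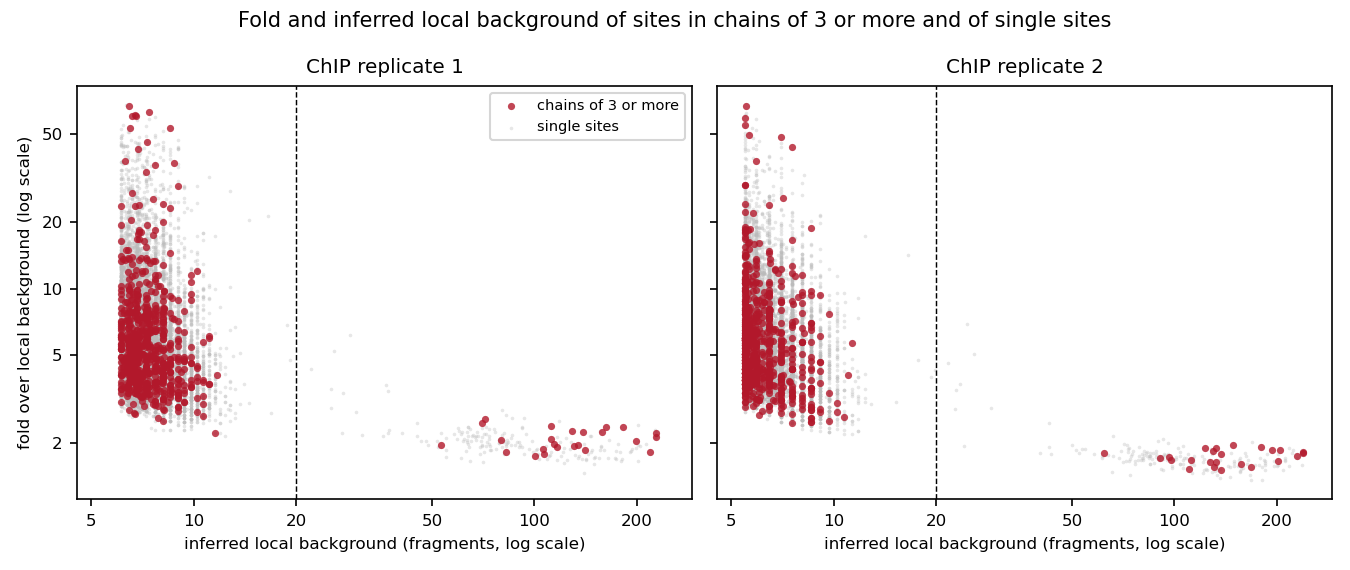
Fold over local background (y axis, log scale) against the inferred local background in fragments (x axis, log scale) of members in chains of 3 or more and of single sites, for each ChIP replicate. The dashed line marks 20 fragments; the 24 members with a high background lie to its right at folds below 2.6.

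They came in groups. Of the 24 sites, 21 made up 6 whole chains. A chain of 4 at chr12:39183938-39189529 had mean folds of 1.98 to 2.16 on backgrounds of 139 to 227 fragments in replicate 1. The chains of 4 at chr1:53484324-53488982 and chr15:47403140-47408212 had mean folds of 1.73 to 1.96 and of 1.79 to 2.12. A chain of 3 lay at chr4:33841451-33844479. Another pair of chains of 3, chr18:33806449-33808887 and chr18:33816666-33821286, lay 8424 bp apart. The last 3 sites belonged to mixed chains, with 2 of the 3 sites at chr15:9022622-9024967 and 1 of the 3 at chr2:32138682-32141564. In the mixed chain on chromosome 15 the high-background sites had mean folds of 1.68 and 1.82, and the third, on a background of 11.7 fragments in replicate 1, had 4.09.

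**Figure D5:**
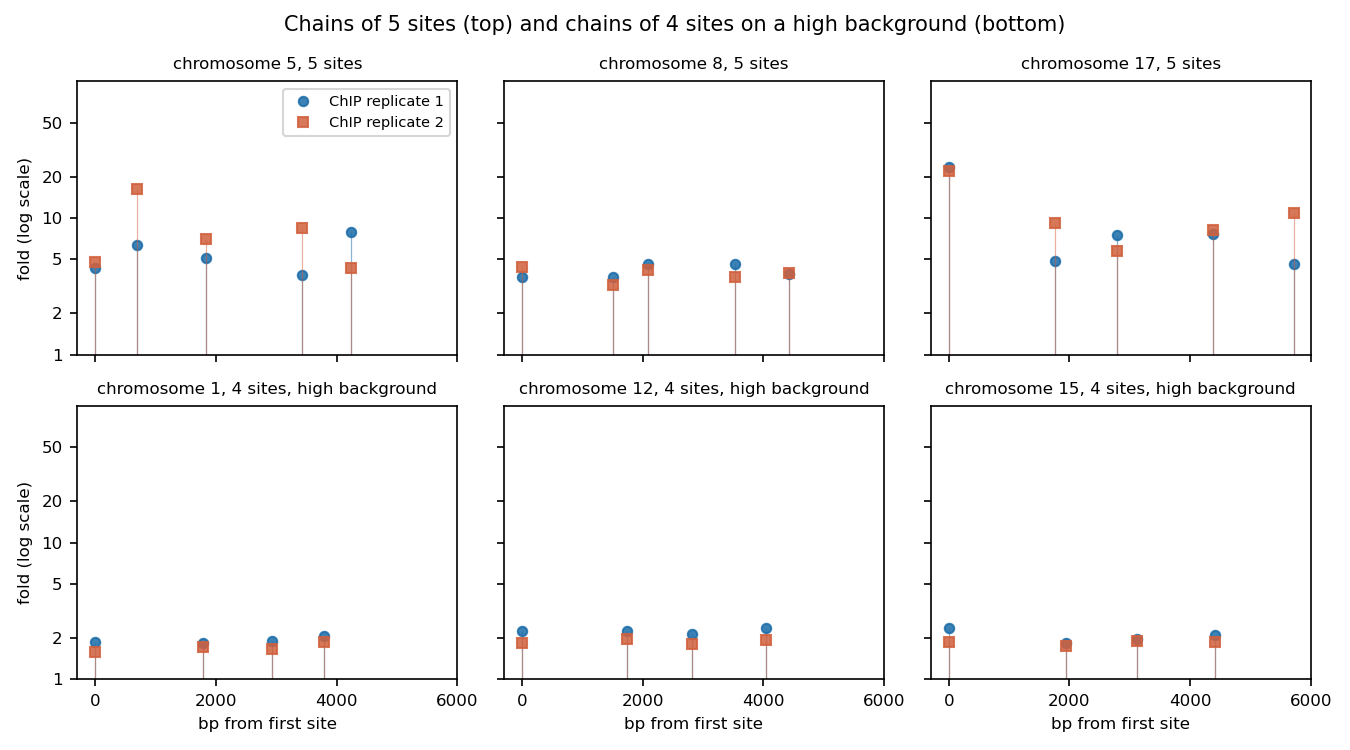
Fold over local background (y axis, log scale) of each site against its distance from the first site of its chain (x axis, bp) for the 3 chains of 5 sites (top) and the 3 chains of 4 sites lying wholly on a background above 20 fragments (bottom). Circles are ChIP replicate 1 and squares replicate 2. The sites on the high background all lie at a fold between 1.57 and 2.39, below all sites of the chains above them.

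Leaving out every site with such a background before chaining gave 665 members in 210 chains. The median of the mean fold was then 5.34 for members and 5.34 for single sites, against 5.24 and 5.31 with them. The number of members with a mean fold of at least 20 stayed at 19, as no such site lay on a high background.

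The chains were spread over every chromosome. The share of a chromosome's sites that were members ran from 2.03% on chromosome 3, with 18 members in 6 chains, to 5.42% on chromosome 17, with 61 members in 19 chains. Chromosome 13 had the most shared sites, 1459, and 50 members in 16 chains, a share of 3.43% that is close to the share over all chromosomes. Along the chromosomes, 71.0% of members lay in the outer 20% at either end (exact interval 67.4% to 74.3%), against 72.2% of sites in chains of 2 and 68.3% of single sites. The interval for the members includes the values of both other classes. The gap to single sites was wider with a chaining distance of 5000 bp, at 74.6% of members and 66.5% of single sites, and at 3000 bp, at 72.8% and 67.7%. When each chromosome was cut into 10 equal stretches, the last stretch held 24.3% of members and 19.6% of single sites, and the first held 15.9% and 19.3%. Of the 3256 sites in chains of 2, 656 lay in the last stretch and 716 in the first. Of the 168 members in the last stretch, 12 lay on a high background. The sixth stretch held only 9 members, 6 of them on a high background.

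The surroundings of the chains are given as a description, since positions chose the members. The nearest site outside the chain was a median of 7346 bp away for chains of 3 or more, 8648 bp for chains of 2 and 10105 bp for single sites; by the rule none can be closer than 2000 bp. It lay within 5 kb of 70 of the 218 chains (32.1%), of 30.3% of chains of 2 and of 26.3% of single sites. Next to each other, chains of 3 or more were seldom found: 3 neighbouring pairs of them lay within 10 kb, on chromosomes 6, 13 and 18.

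The limit of 2000 bp decided some memberships. Just inside it were gaps of 1989 bp at chr17:6402245-6404556, 1991 bp at chr6:48234341-48237003 and 1999.5 bp at chr18:57419560-57422642. The mean folds on either side were 5.25 and 3.84, 7.02 and 8.37, and 15.2 and 64.7. Just outside were gaps of 2003.5 bp at chr17:4478775-4481253, 2019 bp at chr19:36234211-36236818 and 2021.5 bp at chr17:10192178-10194655. There the mean folds were 4.35 and 11.03, 5.80 and 4.86, and 7.35 and 4.68. The sites on the outside of the limit fell within the range of those on the inside.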

How the data were processed

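Reads were aligned with Bowtie 0.12.7 and peaks called with MACS3, tools named in the submitters' processing notes. Not given in the sources used here were genome build, options and control. The authors deposited 1 peak list per ChIP replicate, with peak names that give a q-value limit of 0.01. The peak names inside the second list carry a replicate number other than that of its sample (BR3); the list was assigned to replicate 2 by the labels. Each deposited peak has its position, summit, fold (a ratio to local background), −log10 p-value, −log10 q-value and a display score, which was not used. Coordinates are those of the lists, counted from 1.

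Peaks of the 2 lists that overlapped by at least 1 bp were paired one to one by largest overlap, and their summits averaged. Sites at most 2000 bp apart were chained. The members, lists and named chains were chosen with earlier results of these data known. Named were the longest and second longest chains, the 10 with the strongest site, the 5 with the highest weakest site, the widest, and those nearest the distance limit; not all chains of 4 are given singly.

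Fragments and background at each summit were inferred from fold, taken as fragments plus 1 over background plus 1, and the Poisson p-value. The inferred pair gave back both values within a relative error of 2e-05 at 100% of peaks. Pairing, chaining and inference were tested on simulated data. Intervals are exact binomial (Clopper-Pearson). Total reads per library are not in the lists, so depth is known only as fragments per peak. Python 3.11.15, numpy 2.4.6, pandas 2.3.3 and scipy 1.17.1 were used. Alternatives changed the distance, overlap, q-value limit, position and replicates used. Peaks on scaffolds were left out, as the rule takes chromosomes only.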

Additional observations from a re-analysis of the deposited data

How the results depend on the processing

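Of 65 recomputed values, 43 moved by less than the limit set for them and 22 by more. The chaining distance set the counts: 1000 bp gave 84 members in 27 chains, 3000 bp gave 1540 in 473 and 5000 bp gave 3104 in 912, against 692 in 218 at 2000 bp. The unpaired list of a single replicate, which holds more peaks, gave 1774 to 1998 members in 552 to 611 chains. The median mean fold of members minus that of single sites was −0.49 at 1000 bp, −0.07 as reported, 0.03 at 3000 bp, 0.07 at 5000 bp and 0.0043 without high-background sites, so it has no stable direction. The same difference in median peak width was −29 bp at 1000 bp, 22.5 bp at 5000 bp and 19 bp for peaks with −log10 q of at least 5, against 6.75 bp. The share of members near chromosome ends was 74.6% at 5000 bp, where single sites had 66.5%, and 40.2% with the outer 10% at each end, where single sites had 38.9%. In the list of 1 replicate alone it was 73.0% and 73.5%, and single sites had 67.7% and 68.0%. Members with a mean fold of at least 20 numbered 0 at 1000 bp, 50 at 3000 bp (3.25% of members) and 79 at 5000 bp (2.55%). In the list of 1 replicate alone, where the limit applies to that replicate's own fold, 21 to 48 members reached it. With fold limits of 10 and 30, 77 and 11 members passed, or 11.1% and 1.59%, against 10.3% and 0.58% of all shared sites. These alternatives for the strong members, and the run without high-background sites, were chosen after the data were seen. What caused the values to move was not tested. No paired test was run, since every value is given as a description without a test. Within each replicate, members minus single sites gave −0.06 and −0.29 in median fold and 22.5 and 6.5 bp in median width. Motifs and nearest genes were not analysed here, as no genome or annotation of the files' build was used. With the few fragments at most sites (medians of 43 and 37 over members), moderate differences in fold between sites of 1 chain are not resolved.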
